A study of Ovis aries with 3 samples.

Results

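The genes *SIX3*, *SIX6*, *RAX*, *LHX2*, *OTX2*, *EN1*, *EN2*, *PAX5* and *LMX1B* are transcription factors that divide the front of the vertebrate neural plate into regions. They were chosen by name, and 8 of the 9 were found among the symbols of the 26478 genes in the table. *LHX2* matched no symbol and was not analysed here. *SIX3* marks the front of the forebrain, *SIX6* is its relative in the eye, hypothalamus and pituitary, *RAX* starts and maintains the eye field, and *OTX2* is needed for forebrain and midbrain. *EN1* and *EN2*, the engrailed genes, and *PAX5* are expressed around the midbrain-hindbrain boundary, where the signals *FGF8* and *WNT1* pattern the tissue on either side, and *LMX1B* helps to maintain that signalling. *EN1* is also known from the ventral limb ectoderm and the dermomyotome, and *LMX1B* from dorsal limb mesenchyme and the podocytes of the kidney. Therefore *SOX2*, a neural progenitor factor, was used as a guide to neural and other sources. The split is not strict: *SOX2* was detected in fewer cells at lower depth, so a cell without it may still be neural. A cell with it need not be neural. The genes carry the identifiers ENSOARG00020005903 (*SIX3*), ENSOARG00020010325 (*SIX6*), ENSOARG00020025018 (*RAX*), ENSOARG00020022915 (*EN1*), ENSOARG00020021934 (*EN2*), ENSOARG00020002388 (*PAX5*) and ENSOARG00020006318 (*LMX1B*). The symbol *OTX2* had 2 entries, and all of its UMIs (unique molecular identifiers, each a counted transcript) lay in ENSOARG00020019426.

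Whole sheep embryos were dissociated, treated with red blood cell lysis buffer and measured by droplet-based single-cell RNA sequencing, with 1 library for each of 3 groups. E19 HSTS is an embryo of day 19 of the Hulunbuir short-tailed sheep, a breed whose genotyped animals were homozygous for a coding mutation of *T* (brachyury). E19 HS is an embryo of the same day, and E16 HS of day 16, of the Hu sheep, whose genotyped animals carried the wild-type allele. The E16 HS label names 1 embryo while the study describes several, so whether cells of several embryos were pooled is not settled here. After a filter on cell quality (200 to 6000 genes, 1000 to 30000 UMIs, no more than 10% of UMIs mitochondrial), E19 HSTS had 9618 cells, E19 HS had 10629 and E16 HS had 11329. Values given in threes follow this order. The median depth was 8675, 6900 and 9046 UMIs. With 1 library per group there was no test: intervals are 95% limits of counting error only, and breed, embryo and library, or stage, embryo and library, cannot be told apart.

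The libraries differed in their make-up before any patterning gene was considered. Red cells, defined by at least 3 of the 6 measured red cell genes, made up 26.8%, 12.4% and 16.2% of the cells, despite the lysis step, and had median depths of 14386.5 to 17914 UMIs. *SOX2* was detected in 22.2% (21.4 to 23.1), 28.2% (27.4 to 29.1) and 14.3% (13.7 to 15.0) of the cells. Red cells had it in 3.84%, 3.25% and 2.45%. Ratios within *SOX2* cells and without red cells are given beside the main ones. At least 1 of the 8 genes was detected in 209, 334 and 110 cells, or 2.17%, 3.14% and 0.971% of the kept cells. Between 84.7% and 90% of these cells had only 1 of the genes. Each pair of libraries shared 31 to 37 cell barcodes among the kept cells, none of which had the same gene in both.

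*SIX6* stood at a different level in each of the 3 libraries. E19 HSTS had 56 *SIX6* cells among 9618 (0.582%, 0.44 to 0.755), E19 HS had 137 among 10629 (1.29%, 1.08 to 1.52) and E16 HS had 27 among 11329 (0.238%, 0.157 to 0.347). The summed counts were 263, 713 and 66 UMIs, or 2.64, 8.04 and 0.583 CPM (counts scaled to 1000000 UMIs). Thus E19 HS was highest and E16 HS lowest, with intervals that did not overlap. The *SIX6* cells held 4.70, 5.20 and 2.44 *SIX6* UMIs each, and up to 18, 24 and 13. Among red cells, which should lack the gene, 3 of 2580, 0 of 1322 and 0 of 1836 had a *SIX6* UMI.

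*SIX3* was counted more sparsely, almost always as 1 UMI in a cell. It was found in 22, 46 and 23 cells, which is 0.229% (0.143 to 0.346), 0.433% (0.317 to 0.577) and 0.203% (0.129 to 0.304). The level was 0.251, 0.541 and 0.221 CPM, from 25, 48 and 25 UMIs. E19 HS was again highest, and the other two libraries lay close together. At most 1 red cell in a library had a *SIX3* UMI.

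*RAX* and *OTX2* lay near the limit of detection. *RAX* was seen as a single UMI in each of 11, 21 and 2 cells (0.110, 0.237 and 0.0177 CPM), and in no red cell. *OTX2* had 5 UMIs in 5 E19 HSTS cells, 10 UMIs in 9 E19 HS cells and none among 11329 cells of E16 HS, which allows a share of up to 0.0265% at a floor of 3 counts, or 0.0326% by the exact interval. Both genes had most UMIs in E19 HS, but a count of this size leaves wide limits.

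**Figure D1:**
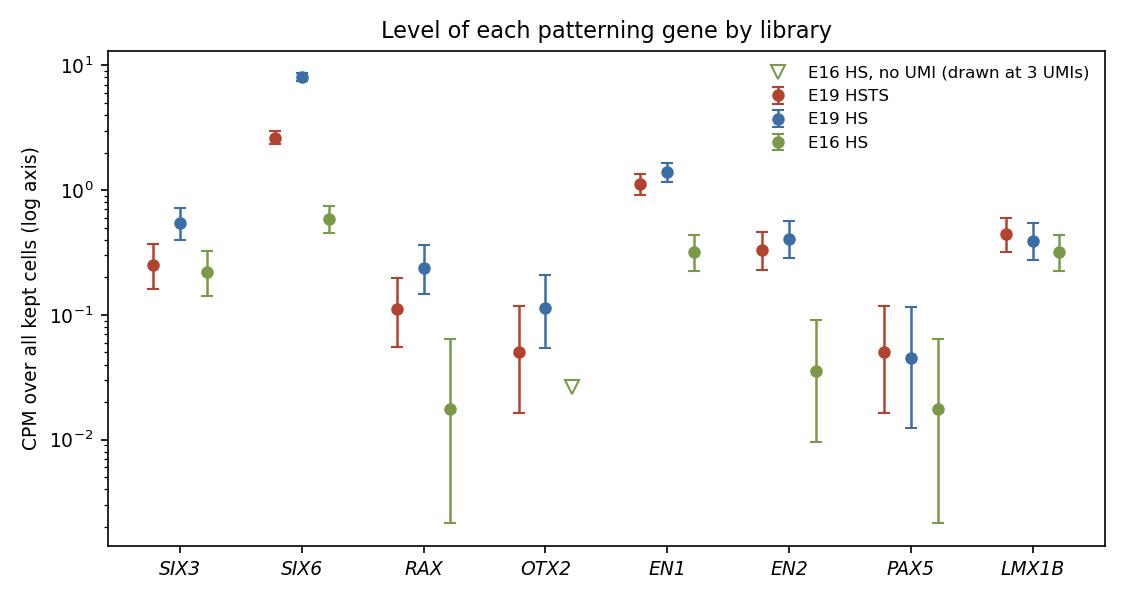
Level of each gene in each library in CPM over the kept cells (log axis), with exact Poisson 95% intervals for counting error. Points are the 3 libraries, and the open triangle marks *OTX2* in E16 HS, with no UMI, at the level of 3 UMIs. *SIX6* spans 0.583 to 8.04 CPM, while *LMX1B* stays between 0.318 and 0.442 CPM.

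The genes of the forebrain were found together in single cells. A cell entered the forebrain gate with at least 2 of *SIX3*, *SIX6* and *RAX*, the measured genes of the gate, and the eye field gate with both *RAX* and *SIX6*. The forebrain gate held 18 E19 HSTS cells (0.187%, 0.111 to 0.296), 35 E19 HS cells (0.329%, 0.229 to 0.458) and 8 E16 HS cells (0.0706%, 0.0305 to 0.139). If the genes had been detected independently of each other among cells of like depth, 0.304, 1.38 and 0.0635 cells would have been counted. The eye field gate held 8, 16 and 1 cells, against 0.0739, 0.418 and 0.0053 under independence.

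By pair, over the 3 libraries, *SIX3* and *SIX6* met in 36 cells (10, 19 and 7), where independence gives 1.09. These were 39.6% of all *SIX3* cells and 16.4% of all *SIX6* cells. *RAX* met *SIX6* in 25 cells, which were 73.5% of the *RAX* cells but 11.4% of the *SIX6* cells. *SIX3* and *RAX* met in 2 cells, so nearly all cells of the forebrain gate had *SIX6* with either *SIX3* or *RAX*. *OTX2* met *SIX6* in 3 of its 14 cells. *SOX2* was detected in 17 of 18, 32 of 35 and 7 of 8 cells of the forebrain gate, and no red cell entered a gate.

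*SIX3*, *SIX6* and *RAX* met the boundary genes in few cells, in the E19 libraries about as often as under independence. A cell with any of *SIX3*, *SIX6* and *RAX* and any of *EN1*, *EN2*, *PAX5* and *LMX1B* was counted 1, 3 and 1 times in the libraries, where independence gives 1.12, 2.88 and 0.280. All of these cells had *SOX2*, while independence was taken over all kept cells of like depth, most of them without *SOX2*. It thus cannot show whether the gene sets were kept apart among *SOX2* cells. *SIX6* and *EN2* met in no cell. *OTX2* met *LMX1B* in 2 cells against 0.0408, *EN2* in 1 against 0.0504 and *EN1* in 1 against 0.148, counts too small to read further. Within the boundary group, *EN1* and *EN2* met in 14 cells (6, 8 and 0) against 0.558 under independence, all of them with *SOX2*. These were 23.7% of the *EN2* cells and 6.48% of the *EN1* cells. *EN1* and *LMX1B* met in 7 cells against 0.838.

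**Figure D2:**
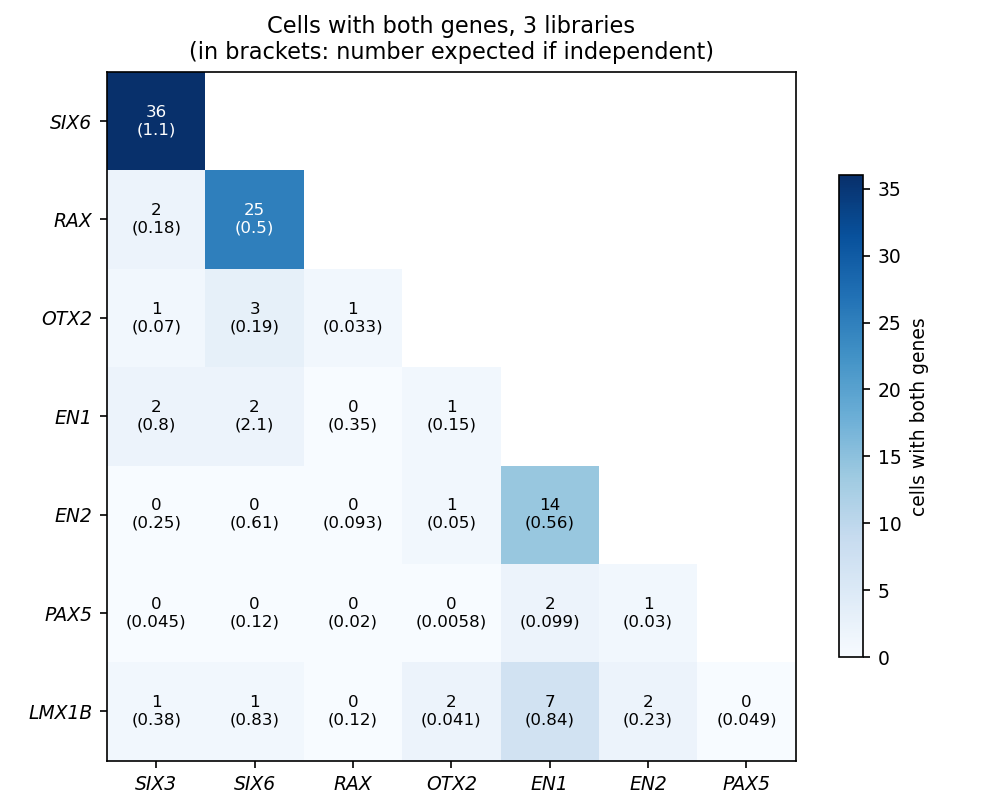
Number of cells with both genes of each pair over the 3 libraries, with the number under independence within 10 bins of depth in brackets and colour following the count. *SIX3* with *SIX6* (36 cells), *SIX6* with *RAX* (25 cells) and *EN1* with *EN2* (14 cells) stand above the other pairs.

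The *SIX6* cells of the E19 libraries carried eye genes. *PMEL*, a melanosome protein of the pigment epithelium, was found in 18 of 56 (32.1%, 20.3 to 46.0), 52 of 137 (38.0%, 29.8 to 46.6) and 2 of 27 (7.41%, 0.910 to 24.3) *SIX6* cells. The *PMEL* level of the *SIX6* cells was 115 and 53.8 times that of the other cells in the E19 libraries and 1.74 times (0.21 to 6.31) in E16 HS. *ALDH1A1*, which makes retinoic acid in the dorsal retina, was found in 12, 28 and 0 of the *SIX6* cells, and *ALDH1A3*, its ventral counterpart, in 8, 36 and 1. Both enzymes met in 4 and 12 cells of the E19 libraries. *PAX6*, a factor of the eye and neural tube, was present in 30, 73 and 13 cells, a similar share in each library (53.6%, 53.3% and 48.1%).

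In E16 HS the *SIX6* cells carried genes of the early forebrain. *HESX1*, a repressor of the anterior neural plate and pituitary, was found in 15 of 27 *SIX6* cells (55.6%, 35.3 to 74.5), against 8 of 56 in E19 HSTS (14.3%, 6.38 to 26.2) and 27 of 137 in E19 HS (19.7%, 13.4 to 27.4). *FEZF1*, another factor of the forebrain, was found in 5, against 2 and 5 in the E19 libraries. *STMN2*, taken as a neuron gene, was found in 23 of the 27 (85.2%, 66.3 to 95.8), at 14.8 times the level of the other E16 HS cells, whereas in the E19 libraries the *SIX6* cells had 0.821 and 1.03 times the level of the others. *ELAVL3* and *DCX*, which also mark neurons, were found in none of the 27, and a neuron gene was found in 64.3% of all *SOX2* cells of E16 HS. The median depth of the *SIX6* cells was 10237, 9600 and 8212 UMIs, so those of E16 HS were the shallowest. Among *SIX3* cells *HESX1* was found in 3 of 22, 6 of 46 and 10 of 23, again with the highest share in E16 HS, and 7 of the 23 *SIX3* cells of E16 HS were *SIX6* cells too. *ALDH1A1* was found in 2, 11 and 0 of the *SIX3* cells.

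Smaller sets of *SIX6* cells had genes of the hypothalamus and of the placodes that give lens, nose and pituitary. *NKX2-1*, a factor of the ventral hypothalamus, was found in 5, 6 and 2 *SIX6* cells. *DLX5*, listed for placodes, was found in 13, 24 and 2, and met *PMEL*, *MITF* or *DCT* in 1, 2 and 0. By contrast, the pigment genes met *PAX6* in 14, 49 and 2. HOX genes, which mark the hindbrain and trunk, were found in 4, 9 and 5 *SIX6* cells, or 7.14%, 6.57% and 18.5%, against 38.9%, 33.5% and 37.0% of the other cells.

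**Figure D3:**
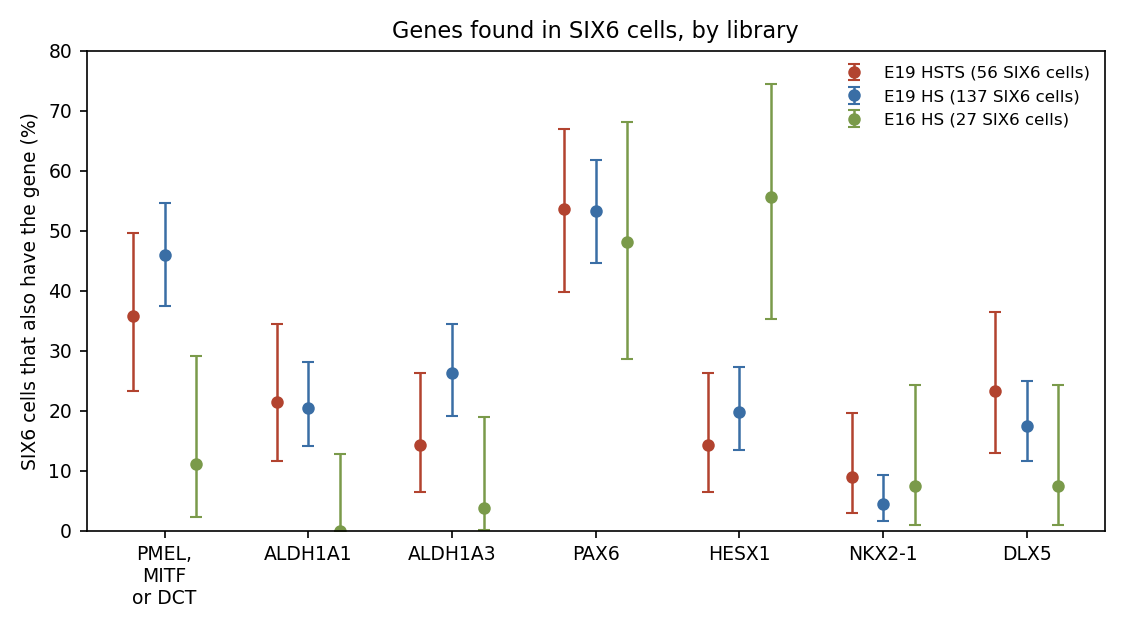
Share of *SIX6* cells with each partner gene or group in the 3 libraries, in percent, with exact binomial 95% intervals. The denominators are 56, 137 and 27 cells. The pigment genes reach 20 and 63 cells in the E19 libraries and 3 cells in E16 HS, while *HESX1* reaches 15 of 27 cells in E16 HS.

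The genes with the highest ratio in the eye field and forebrain gates were taken with the 3 libraries summed. In the 25 cells of the eye field gate, of which 24 were from E19, these were *RLBP1* (6 cells, 216-fold over the other cells), *ALDH1A1* (4 cells, 155-fold), *PMEL* (21 cells, 112-fold, 94.9 to 131), *ALDH1A3* (7 cells, 107-fold) and *TYRP1* (8 cells, 101-fold). *RLBP1* binds retinaldehyde and *TYRP1* is a melanin enzyme. *PMEL* was found in 7 of 8 gate cells in E19 HSTS and 14 of 16 in E19 HS, and *ALDH1A3* in 0 of 8 and 7 of 16. In the 61 cells of the forebrain gate the first 5 were *ALDH1A1*, *ALDH1A3*, *TYRP1*, *PMEL* and *HESX1*, at 81.7, 81.1, 65.0, 63.9 and 43.2 times the level of the other cells. *PMEL* was in 8 of 18, 20 of 35 and 1 of 8 cells of that gate, and *HESX1* in 4, 6 and 7.

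The comparison of E19 HSTS with E19 HS sets 1 library of each breed side by side at the same stage, where breed, embryo and library cannot be told apart. Of the 6 genes with at least 20 UMIs over both libraries, 3 were at least 2-fold lower in E19 HSTS (*SIX3*, *SIX6* and *RAX*), and 0 were 2-fold higher. Among all 13984 genes with that many UMIs, 3.30% were 2-fold lower and 2.40% were 2-fold higher, with a median ratio of 0.963. *SIX6* was at 0.329 of its E19 HS level (0.284 to 0.379), a 3.04-fold lower level. *SIX3* was at 0.464 (0.274 to 0.768), and *RAX* at 0.467 (0.203 to 1.01), from 11 against 21 UMIs. *EN1*, *EN2* and *LMX1B* had ratios of 0.804 (0.616 to 1.05), 0.817 (0.494 to 1.35) and 1.12 (0.702 to 1.80), all with limits that include 1.

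The red cell and *SOX2* shares moved with these ratios, and their part in them was not tested. Without red cells *SIX6* stood at 0.425, *SIX3* at 0.632 and *RAX* at 0.622, so that only *SIX6* remained past 2-fold, and without cells above 20000 UMIs *SIX3* and *RAX* stood at 0.553 and 0.603. *RAX* was also within 2-fold under a stricter filter (0.546) and by the ratio of shares of cells in place of CPM, at 0.579 (11 and 21 cells), and at 0.909 after thinning to 3000 UMIs, from 5 and 6 cells. *SOX2* itself had a ratio of 0.689 (0.669 to 0.709). Within *SOX2* cells the ratio was 0.503 (0.433 to 0.582) for *SIX6*, 0.779 (0.448 to 1.33) for *SIX3* and 0.666 (0.277 to 1.51) for *RAX*. In cells with at least 2 genes of the eye list (*MITF*, *PMEL*, *ALDH1A3* and *ALDH1A1* among them), *SIX6* was detected in 18 of 46 E19 HSTS cells (39.1%, 25.1 to 54.6) and 52 of 81 E19 HS cells (64.2%, 52.8 to 74.6). Its level there was 147 against 328 CPM, a ratio of 0.449 (0.353 to 0.567). The lower *SIX6* level of E19 HSTS was thus seen both as fewer *SIX6* cells and within the cells with eye genes, while each *SIX6* cell held 4.70 against 5.20 *SIX6* UMIs.

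The comparison of E16 HS with E19 HS sets 1 library of each stage of the Hu sheep side by side, and shares the E19 HS library with the first. Of the 6 genes with at least 20 UMIs, 5 were at least 2-fold lower in E16 HS, all but *LMX1B*, and 0 were 2-fold higher. Among 14127 genes, 7.89% were 2-fold lower and 8.06% were 2-fold higher, with a median ratio of 1.16. *SIX6* was at 0.0726 of its E19 HS level (0.0555 to 0.0935), or 13.8-fold lower. *RAX* was at 0.0746 (0.00849 to 0.305), from 2 against 21 UMIs, and *SIX3* was at 0.408 (0.241 to 0.675). *OTX2*, with 0 against 10 UMIs, lay below the minimum of 20 UMIs. With E16 HS set at a floor of 3 UMIs it would be 4.25-fold lower, a value that leaves out counting error. *EN1* was at 0.229 (0.154 to 0.335), *EN2* at 0.0871 (0.0225 to 0.243) and *LMX1B* at 0.806 (0.492 to 1.32).

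*SOX2* was at 0.389 of its E19 HS level in E16 HS, so the same values were taken within *SOX2* cells. There *SIX6* kept a ratio of 0.137 (0.103 to 0.178), *EN1* one of 0.367 (0.209 to 0.612) and *EN2* one of 0.110 (0.0127 to 0.438), whereas *SIX3* had 0.838 (0.473 to 1.45) and *LMX1B* 1.49. The ratio of the shares of cells with *SIX3* was 0.469. Thinned to 3000 UMIs a cell, *SIX3* was detected in 0.110% (0.0549 to 0.196) of E16 HS and 0.108% (0.0517 to 0.198) of E19 HS cells, a ratio of shares of 1.02, and *SIX6* in 0.15% and 0.926%. The thinned *SIX3* values rest on 11 and 10 cells, with limits too wide to show or to exclude a 2-fold difference, while *SIX6* was lower in E16 HS by each measure. Of the cells with 2 eye genes, 0 of 12 had *SIX6* in E16 HS against 52 of 81 in E19 HS.

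The boundary genes differed in how often they were found with *SOX2*. *EN2* was detected in 25 (0.260%), 31 (0.292%) and 3 (0.0265%) cells, with 33, 36 and 4 UMIs. In E16 HS this share lay below that of red cells (1 of 1836, 0.0545%), so that *EN2* could not be told from background there. In the E19 libraries 22 of 25 (88.0%) and 22 of 31 (71.0%) of the *EN2* cells had *SOX2*, against 22.1% and 28.1% of the cells without *EN2*. *PAX5* had 5, 4 and 2 UMIs in 4, 4 and 2 cells, too few for any comparison, and 8 of its 10 cells had *SOX2*.

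*EN1* was detected in 80, 105 and 31 cells, which is 0.832% (0.660 to 1.03), 0.988% (0.809 to 1.19) and 0.274% (0.186 to 0.388), with 111, 123 and 36 UMIs. *SOX2* was found in 26 of 80 (32.5%, 22.4 to 43.9), 63 of 105 (60.0%, 49.98 to 69.4) and 15 of 31 (48.4%, 30.2 to 66.9) of these cells. The E19 HSTS share was the lowest, and its limits did not overlap those of E19 HS. At a depth of 3000 UMIs the shares were 21.2%, 43.8% and 42.9%, and among cells without *EN1* 17.1%, 21.9% and 9.69%. In the E19 libraries the *EN1* level was 2.49 (1.83 to 3.31) and 3.22 (2.54 to 4.03) CPM in *SOX2* cells, and 0.793 (0.611 to 1.01) and 0.709 (0.519 to 0.946) CPM outside them, with overlapping limits in both.

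The levels of *LMX1B* lay close together, between 0.318 and 0.442 CPM. It was detected in 40, 32 and 33 cells, or 0.416% (0.297 to 0.566), 0.301% (0.206 to 0.425) and 0.291% (0.201 to 0.409), with 44, 35 and 36 UMIs. *SOX2* was found in 14, 10 and 11 of them, or 35% (20.6 to 51.7), 31.2% (16.1 to 50.01) and 33.3% (17.96 to 51.8), where the cells without *LMX1B* had 22.2%, 28.2% and 14.3%. The limits included the share of the other cells in the E19 libraries and lay above it in E16 HS. The eye and forebrain genes stood apart from it, with *SOX2* in 95.5%, 80.4% and 87.0% of *SIX3* cells, in 89.3%, 81.8% and 88.9% of *SIX6* cells, and in 10 of 11, 19 of 21 and 2 of 2 *RAX* cells. At 3000 UMIs a cell the shares of *SIX6* cells were lower, at 62.9%, 43.0% and 46.7%, still above the 16.9%, 21.8% and 9.65% of the cells without *SIX6*.

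**Figure D4:**
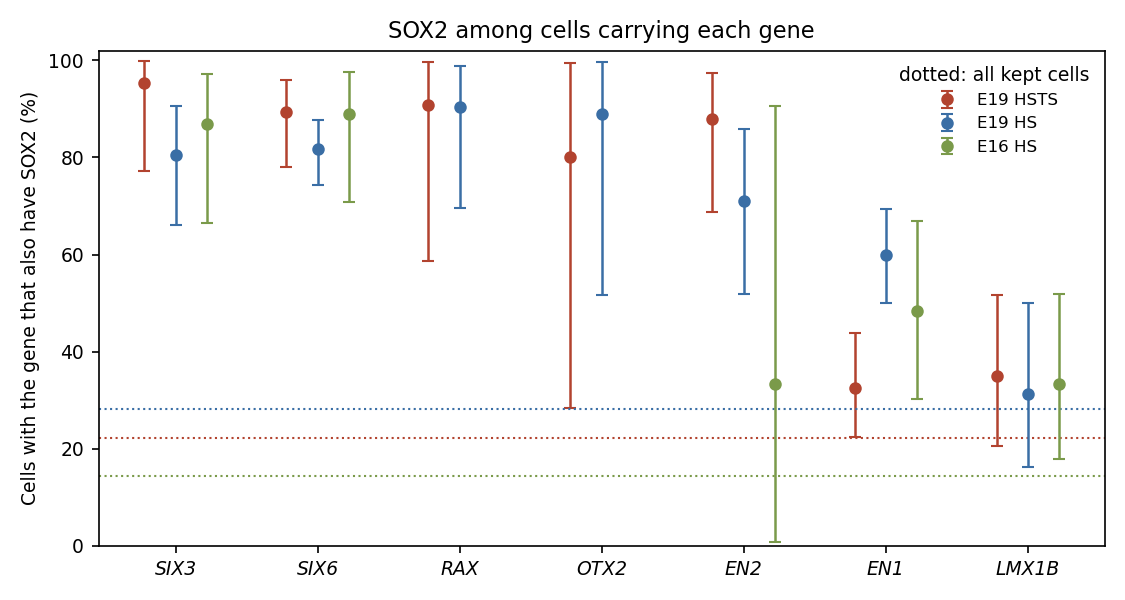
Share of the cells with each gene that also had *SOX2*, in percent, in the 3 libraries, with exact binomial 95% intervals; genes with at least 3 cells in a library are drawn and *PAX5* is not. Dotted lines give the *SOX2* share of all kept cells (22.2%, 28.2% and 14.3%). *SIX3*, *SIX6* and *RAX* lie at 80.4% or above, and *LMX1B* between 31.2% and 35%.

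The boundary gate, cells with at least 2 of *EN1*, *EN2*, *PAX5* and *LMX1B*, held 11 (0.114%, 0.0571 to 0.205), 9 (0.0847%, 0.0387 to 0.161) and 2 (0.0177%, 0.00214 to 0.0638) cells of the 3 libraries. *SOX2* was found in 9 of 11, 9 of 9 and 2 of 2 of them. Under independence 0.770, 0.882 and 0.142 cells would have been counted. Genes known for the boundary were found in 8 of the 22 cells (5, 3 and 0), against 8.32% of the other cells. Their level was 8.29 times (5.77 to 11.5) that of the other cells, with 27 of the 35 UMIs from *FGF8*. *FGF8* was found in 4 cells and *PAX8*, a paired-box factor of the same region, in 5, while *WNT1* and *PAX2* were found in none. A HOX gene was found in 1 of the 22 cells, a level of 0.0473 of that of the other cells, and no gene of the telencephalon and hypothalamus list in any.

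The 5 genes with the highest ratio in the boundary gate were *SP5* (5 cells, 40.8-fold, 13.1 to 97.4), *MT3* (11 cells, 21.4-fold), *SLC4A8* (4 cells, 21.0-fold), *WNT2B* (4 cells, 18.5-fold) and *HES3* (8 cells, 16.1-fold). *SP5* is a target of WNT signalling and *HES3* a HES-family repressor known from the boundary. *FABP7*, of radial progenitors, was found in 16 of the 22 and *STMN2* in 19. The wider set of 59 *EN2* cells was alike, with boundary partners at 4.95 times and HOX genes at 0.0438 times the level of the other cells. *FGF8* was found in 3 of 25 and 6 of 31 *EN2* cells of the E19 libraries, and *CNPY1*, an FGF modulator of the boundary, in 1 and 2.

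*EN1* cells with *SOX2*, 104 in all, were less uniform. Boundary partners were found in 27 of them, at 3.61 times the level of the other cells, and neuron genes in 71. HOX genes, nearly missing from the *EN2* cells, were found in 6 of 26, 9 of 63 and 2 of 15 of the *EN1* cells with *SOX2*, at 0.828 (0.519 to 1.25), 0.631 and 0.255 of the level of the other cells. *LMX1B* cells with *SOX2*, 35 in all, had a HOX gene in 15, at 1.54 times the level of the other cells. *STMN2* was in 25 of them, and *FOXA2* and *SHH*, listed for the floor plate, in 3 each. *LMX1A*, listed for the roof plate, was in 2. Whether these cells were floor or roof plate was not tested. Among cells without *PAX5*, nearly all of those kept, a HOX gene was found in 38.8%, 33.1% and 36.9%, or 36.2% over the 3 libraries. Some cells of both sets thus had HOX genes, but the *EN1* share lay below this background in each library. The *LMX1B* share lay near it, while the HOX level of that set was 1.54 times that of the other cells. This background covers kept cells of all kinds, and a comparison with other *SOX2* cells is not given here.

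*EN1* cells without *SOX2* numbered 54, 42 and 16. Many of them had epithelial genes: at least 2 of *EPCAM*, *CDH1*, *CLDN7*, *KRT8*, *KRT18* and *GRHL2* were found in 23 (42.6%, 29.2 to 56.8), 16 and 12 cells. All kept cells showed such a pair in 21.5%, 22.8% and 47.5%. Limb and lateral mesenchyme genes, again at least 2, were found in 10, 12 and 0, and somite genes in 7, 2 and 0. *PRRX1*, of limb and lateral mesenchyme, was in 16, 12 and 1 of the cells, and *MEOX1*, of somites, in 15, 4 and 0. In E19 HSTS 6 cells held both the epithelial and the limb pair, and 13, 12 and 4 cells had a pair from none of 12 lists.

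The genes with the highest ratio in these 112 cells were *CXCL14* (29 cells, 29.3-fold, 27.3 to 31.3), *COL8A1* (21 cells, 14.4-fold), *TNC* (19 cells, 9.43-fold), *COLEC12* (39 cells, 5.64-fold) and *MAP2* (21 cells, 5.57-fold). *CXCL14* is a chemokine, *COL8A1* a collagen and *TNC* the matrix protein tenascin. *CXCL14* was found in 11 of 54, 7 of 42 and 11 of 16 cells, and *COL8A1* in 13, 8 and 0, so that *CXCL14* was more frequent in E16 HS and *COL8A1* was seen in the E19 libraries.

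*LMX1B* cells without *SOX2* numbered 26, 22 and 22, and their partners differed between the E16 HS and the E19 libraries. At least 2 limb and lateral mesenchyme genes were found in 11, 5 and 0 of them, and at least 2 nephric genes (*PAX2*, *PAX8*, *WT1*, *LHX1*, *GATA3*, *NPHS1* and *OSR1* among them) in 1, 1 and 9. *WT1*, a factor of podocytes, was in 1, 5 and 10 cells, *NPHS1*, the slit diaphragm protein nephrin, in 0, 2 and 6, and *LHX1*, of the early nephron, in 1, 1 and 7. *PRRX1* was in 7, 5 and 0 cells, and *TWIST1*, of mesenchyme, in 12, 7 and 0. At least 2 epithelial genes were found in 12, 8 and 10 of the cells. All kept cells showed such a pair in 21.5%, 22.8% and 47.5%, so the E16 HS share was no higher than that of all cells. A single nephric gene or more was found in 6, 8 and 14 of these *LMX1B* cells. Seen from the other side, *LMX1B* was detected in 9 of 296 E16 HS cells with 2 nephric genes, against 2 of 171 in E19 HSTS and 1 of 140 in E19 HS. The CPM ratio of E16 HS to E19 HS there was 3.64 (0.529 to 157), with limits that include 1. *LMX1B* was in 0 of 1291 E16 HS cells with 2 limb and lateral genes, against 11 of 833 and 7 of 730.

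The genes with the highest ratio in the 70 *LMX1B* cells without *SOX2* were *PTPRQ* (15 cells, 68.4-fold, 53.1 to 87.1), *ENPEP* (15 cells, 58.0-fold), *PTPRO* (22 cells, 50.01-fold), *MAGI2* (14 cells, 40.0-fold) and *SLPI* (15 cells, 32.1-fold). *PTPRO* and *MAGI2* are known podocyte proteins and *ENPEP* is a peptidase of kidney epithelium. *PTPRO* was found in 4 of 26, 7 of 22 and 11 of 22 cells and *SLPI* in 1, 4 and 10, the order of *WT1*. *C1QA*, listed as a myeloid gene, was in 2, 7 and 12 of these cells and met *WT1* in 1, 3 and 10, whereas the other myeloid genes (*C1QB*, *C1QC*, *CSF1R* and *CD14*) were in none. Neural crest *TFAP2B*, also known from the kidney, was in 7, 7 and 2.

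**Figure D5:**
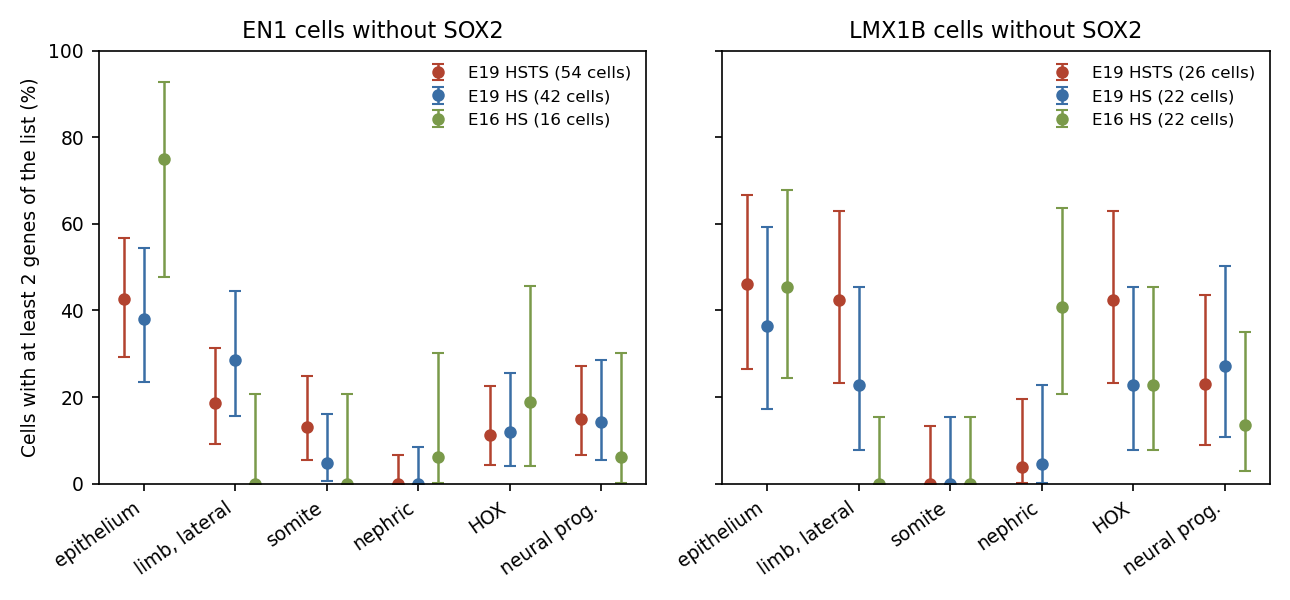
Share of *EN1* cells without *SOX2* (54, 42 and 16 cells) and of *LMX1B* cells without *SOX2* (26, 22 and 22 cells) with at least 2 genes of each of 6 lists, in percent, with exact binomial 95% intervals. The lists overlap in single cells. Nephric pairs are in 9 of 22 *LMX1B* cells of E16 HS and in 1 each of the E19 libraries, and limb pairs in none of E16 HS.

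Other genes of the same regions were compared by the same 2-fold rule. Of the eye list, 2 of 5 tested genes were lower in E19 HSTS than in E19 HS (*PMEL* 0.486, 0.431 to 0.549, and *ALDH1A3* 0.286, 0.204 to 0.394) and none was higher. *MITF*, a pigment cell factor, and *ALDH1A1* had 0.755 and 0.647. Of the forebrain factors, *FEZF1* had 0.297 (0.115 to 0.683), from 8 against 24 UMIs, while *HESX1* had 0.706 (0.520 to 0.956) and *NKX2-1* 0.815 (0.488 to 1.35). The median of the eye list was 0.647, beside 0.963 over all genes and 0.862 for neural progenitor genes, of which 0 of 6 passed 2-fold. The roof plate and myeloid lists had lower medians, at 0.509 and 0.606, so a low median was not particular to the eye list. All other lists with tested genes had higher medians, among them telencephalon and hypothalamus at 0.815.

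In E16 HS, 3 of 4 tested eye genes (*MITF* 0.325, *ALDH1A3* 0.0394 and *ALDH1A1* 0.0556) were 2-fold lower than in E19 HS, and none was higher. The fourth, *PMEL*, had 0.530 (0.473 to 0.593), from 518 against 766 UMIs, most of them outside *SIX6* cells in E16 HS. The forebrain factors *FEZF1* and *NKX2-1* were also 2-fold lower, at 0.294 (0.120 to 0.655) and 0.314 (0.156 to 0.598), while *HESX1* had 0.776 (0.583 to 1.03). Neural progenitor genes were lower in 5 of 6 and neuron genes in 5 of 5, with medians of 0.360 and 0.139. The boundary signals went the other way, with 2 of 4 tested genes higher and 0 lower: *FGF8* had 2257 UMIs in E16 HS against 587 in E19 HS, a ratio of 3.01 (2.75 to 3.31), and *FGF17* 388 against 38, a ratio of 8.003 (5.73 to 11.5). Both FGF genes are also expressed outside the brain, for example in the tail bud. In E19 HSTS *FGF17* had 2 UMIs, a ratio of 0.0469 (0.00548 to 0.181) to E19 HS, while *FGF8* had 521 and a ratio of 0.791. *PAX8* and *PAX2* stayed within 2-fold in both comparisons. The midbrain genes *DMBX1*, *POU4F1* and *BARHL1* had at most 3 UMIs in any library and were not compared.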

How the data were processed

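The authors deposited raw UMI counts per gene and cell, made with Cell Ranger 6.1.2 (submitters' processing notes); their downstream Seurat work was not used. Counts were read from the filtered matrices, and cells outside 200 to 6000 genes or 1000 to 30000 UMIs, or above 10% mitochondrial UMIs, were dropped. Cell barcodes, not clusters, were counted. No doublet caller was run, and cells above 20000 UMIs were left out as an alternative. Kept cells held 88733467 to 113213654 UMIs per library. Shares carry exact Clopper-Pearson intervals, levels exact Poisson intervals and CPM ratios exact conditional binomial intervals, all 95% and for counting error only. Thinning used 3000 UMIs a cell, and numbers under independence used 10 depth bins. A gene counted as past the fold at 2-fold, with at least 20 UMIs over both libraries. Members and marker lists were chosen with earlier results of these data known. Named genes were the members, genes of the lists, and, for each gate and for *EN1* and *LMX1B* cells without *SOX2*, the 5 genes with the highest CPM ratio among those in at least 15% of the cells. The pigment grouping of *PMEL*, *MITF* or *DCT* was chosen after values were seen. Results for some genes of the lists are not reported here. Calculations ran in Python 3.11.15 (pandas 2.3.3, numpy 2.4.6, scipy 1.17.1), with TMM factors from edgeR 4.0.16. The statistics were tested on simulated data.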

Additional observations from a re-analysis of the deposited data

How the results depend on the processing

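No paired analysis was possible because each group has 1 library. Alternatives were a stricter filter (500 genes, 5% mitochondrial UMIs), all deposited cells, cells without red cells or without those above 20000 UMIs, thinning to 3000 UMIs, detection at 2 UMIs and TMM scaling. Of 94 ratios, 86 moved by less than their counting interval, 7 moved by more and 1 turned direction. The last was *SIX3* of E16 HS to E19 HS at 1.02 by shares of thinned cells. That ratio compares shares in place of CPM and rests on 11 and 10 cells. Shares moved more often: 44 of 144 member shares of cells, 27 of 128 *SOX2* shares of member cells and 17 of 54 gate shares. None of these shares turned direction. The *RAX* ratio of E19 HSTS to E19 HS ran from 0.439 to 0.909. Thinned, the forebrain gate held 0.0235%, 0.0646% and 0.0200% of cells (libraries in the order used above), and the eye field gate 0.0117%, 0.0323% and 0%. The thinned boundary gate held 0.0108% of E19 HS and 0% of E16 HS cells. Thinning removes UMIs, so a gate that needs 2 sparse genes must shrink, and at 2 UMIs a gene all gates were at 0% except the boundary gate of E19 HSTS, at 0.0104%. The *SOX2* share of *EN1* cells was 21.2% and 43.8% in the thinned E19 HSTS and E19 HS cells, and at 2 UMIs 55.6% in E19 HSTS and 75% in E16 HS. For *LMX1B* it was 9.09% in thinned E19 HSTS cells and 0% at 2 UMIs in E16 HS. The 3 members 2-fold lower in E19 HSTS became 1 without red cells and 1 without cells above 20000 UMIs. For these 2 settings no share over all genes is given here. With a minimum of 100 UMIs, where 2 members were left to compare, 1 was lower, beside 1.64% of 11149 genes. The 5 members lower in E16 HS became 2 of 2 with that minimum, beside 5.13% of 11336 genes. Depth limits the sparse genes (*RAX*, *OTX2* and *PAX5*, and *EN2* in E16 HS), where 1 UMI is 0.00883 to 0.0113 CPM.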
